A study of Rattus norvegicus with 3 samples.

Results

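The genes described here belong to the antioxidant programme controlled by the transcription factor NRF2. They are Nfe2l2, Keap1, Nqo1, Hmox1, Gclc, Gclm, Txnrd1, Gsta4, Gstm1 and Gstp1. They were chosen by symbol for their known roles and matched to the count rows by NCBI gene identifier, and all 10 had a row among the 18560 genes measured. The values are read counts from RNA sequencing of hippocampi of wild-type, healthy rats that were gavaged with Q808 for 28 days; Q808 is the code name of a candidate anticonvulsant. The 3 samples form 1 group, and the sources used here do not give strain, sex, age or dose. All 10 genes stood in the file of replicate 2, which held 15417009 counts. Those of replicates 1 and 3 held, in the form used here, only the first 12 and 307 genes of the same order, with 11402 and 298642 counts, and none of the 10 genes was among them. Each level below therefore comes from 1 library, has no replicate check and carries no test. With no untreated sample analysed here, the values cannot show an effect of Q808. The header of each count column begins with Con_Q; if Con stood for a control, which the sources do not say, these would not be levels of treated tissue.

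NRF2 is a basic leucine zipper transcription factor. In unstressed cells KEAP1 binds it and hands it to a CUL3 ubiquitin ligase, so that it is degraded. Oxidants and electrophiles modify cysteines of KEAP1, NRF2 accumulates, pairs with a small MAF protein and binds antioxidant response elements near the genes of detoxifying enzymes. NRF2 is thus controlled largely through the stability of the protein, which RNA counts do not measure. In brain, enzymes of this programme and of glutathione synthesis are known to be strong in astrocytes, which supply neurons with glutathione precursors.

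Markers of cell types were read in replicate 2. The lists held no gene that marks the hippocampus among brain regions, so they do not test the tissue label. Neuron markers ranged from 137 to 2479 CPM, which are counts per 1000000 counts of the library, led by Snap25 and Syt1. Astrocyte markers, led by Aldoc and Gfap, ranged from 379 to 826 CPM. Oligodendrocyte markers, led by Mbp, ranged from 108 to 5578 CPM. Microglia markers (Csf1r and P2ry12 in front) lay between 10.6 and 61.7 CPM. Endothelial markers (Slc2a1 and Cldn5) lay between 12.8 and 140.3 CPM. Of the choroid plexus markers, Ttr had 176 CPM and the next, Clic6, 4.15 CPM. Of the blood markers, Hba-a1 had 127 CPM and Hbb 67.3 CPM. In bulk tissue, fewer cells of a type and less RNA per cell cannot be told apart.

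The core of the antioxidant response element reads TGACNNNGC, and it was searched on both strands in the RefSeq promoter windows of assembly GRCr8, which run from 250 bases before to 50 bases after a gene's start as RefSeq's table sets it. Of the 10 genes, 9 had a window, and Txnrd1 had 2 of them. The table used here held no window for Hmox1. The core was found in 4 of the 9 genes, Gstp1, Gclm, Txnrd1 and Nfe2l2. Over all 33469 promoter windows of this length, 12.1% held it, and over genes that reached 10 counts in replicate 2, 15.3% did. Among the 103 related genes with a window, described further below, 24 (23.3%) held it. With 9 genes these shares are descriptions. A match is not evidence of binding, and a window without one says only that these letters are not within it.

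The upstream part of the windows of Gstp1, Gclm and Txnrd1 is shown because it carries the element, with the core in capitals, 5′ to 3′ on the strand of the gene. In Gstp1 the core lies 61 to 53 bases before the start, on the gene's own strand. Its first letters also spell TGACTCA, a match to TGANTCA, the AP-1 element, so the matches overlap. TGANTCA was found in 7.33% of all windows and in no other of the 9 genes. In Gclm the core lies on the opposite strand, 172 to 164 bases before the start, where it reads TGACTAAGC. In Txnrd1 it lies on the opposite strand, 78 to 70 bases before 1 of the 2 starts, and reads TGACAAAGC. In Nfe2l2 the match (TGACGCCGC) lies after the start, from base 38 to base 46. The windows shown are chr1:210769706-210769955 (minus strand) for Gstp1, chr2:213031885-213032134 (plus strand) for Gclm and chr7:22755905-22756154 (minus strand) for Txnrd1, all of GRCr8.
Gstp1: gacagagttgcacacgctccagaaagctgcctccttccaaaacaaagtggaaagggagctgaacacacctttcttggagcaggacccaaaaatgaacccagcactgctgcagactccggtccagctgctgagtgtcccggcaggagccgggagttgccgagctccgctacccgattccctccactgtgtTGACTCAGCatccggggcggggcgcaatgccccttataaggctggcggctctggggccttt
Gclm: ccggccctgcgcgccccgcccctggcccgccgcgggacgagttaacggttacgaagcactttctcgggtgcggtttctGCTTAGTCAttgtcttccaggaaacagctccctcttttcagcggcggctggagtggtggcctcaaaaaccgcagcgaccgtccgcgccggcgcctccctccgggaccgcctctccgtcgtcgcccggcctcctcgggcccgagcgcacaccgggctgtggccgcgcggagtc
Txnrd1: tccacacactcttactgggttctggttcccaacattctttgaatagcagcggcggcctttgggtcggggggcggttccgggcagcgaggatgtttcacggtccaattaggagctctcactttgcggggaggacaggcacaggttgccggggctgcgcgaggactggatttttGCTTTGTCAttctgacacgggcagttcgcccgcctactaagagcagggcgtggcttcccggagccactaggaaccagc

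Base composition varied widely among these promoters. G and C made up 76.7% of the window of Gclc and 72% of that of Gclm, against 43.7% in the Txnrd1 window that lacked the core. The median over all windows was 51.7%, and 3 of the 10 windows lay above the 75th percentile of 60.3%.

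**Figure D1:**
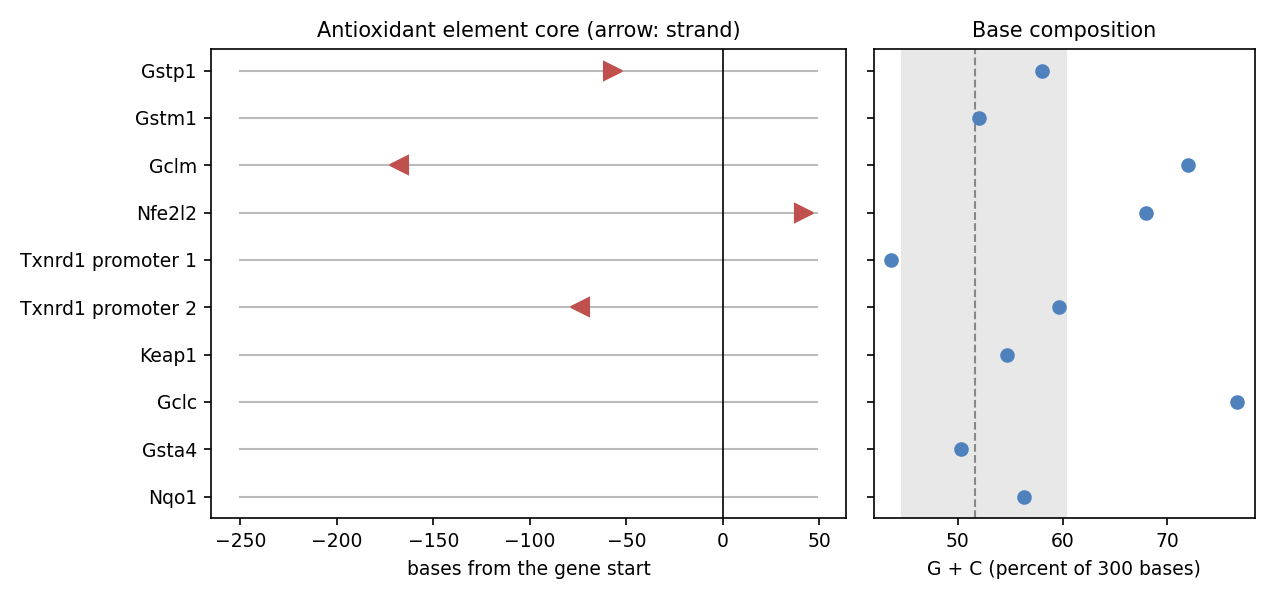
Position of the antioxidant element core in the 10 promoter windows of 9 genes (left; horizontal axis, bases from the gene start; the arrow points right where the core lies on the gene's strand and left where it lies on the other) and share of G and C in each window (right; grey band, 25th to 75th percentile of 33469 windows; dashed line, their median). The core lies before the start in Gstp1, Gclm and 1 window of Txnrd1 and after it in Nfe2l2; Gclc has the highest G and C share, 76.7%.

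All 10 genes were detected, a call that needed at least 10 counts and that 77% of all genes reached. Together they held 8339 counts, which is 541 CPM (95% exact Clopper-Pearson interval 529 to 553) or 0.0541% of the library. Their median was 31.6 CPM, against 25.2 CPM over the 14295 detected genes, and 5 of the 10 lay above that median, as 38.5% of all genes did. The median percentile of the 10 among detected genes was 55.6. Only Gstm1 reached 100 CPM, a level that 13.1% of all genes reached. As a set, these genes were read at a level near the middle of the detected transcriptome, and they spread over a wide range around it. All intervals cover counting error only, because they were computed from the counts and hold no spread between replicate libraries. PCR copies could not be told from separate molecules, so the intervals may be too narrow even for counting error.

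The regulator itself was read at a moderate level. Nfe2l2, which encodes NRF2, had 294 counts, or 19.1 CPM (95% interval 17.0 to 21.4), at the 43.3rd percentile of detected genes. Keap1, which encodes the adaptor that holds NRF2 down, had 1329 counts, or 86.2 CPM (81.6 to 91.0), at the 80.1st percentile. The inhibitor's gene thus yielded more reads than that of the factor it binds. CPM is not corrected for transcript length, and transcript lengths were not part of the sources used here, so this is an order of reads and not of molecules. The same holds for every comparison of genes that follows.

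Of the NRF2 target genes for quinone, heme and thioredoxin enzymes, 1 was read well above the other two. Nqo1, which encodes a quinone reductase, had 164 counts, or 10.6 CPM (9.07 to 12.4), at the 31.7th percentile. Hmox1, the inducible heme oxygenase gene, had the fewest reads of the 10, with 107 counts or 6.94 CPM (5.69 to 8.39), at the 24.9th percentile. Both lay in the lower part of the detected genes. Txnrd1, the gene of the cytosolic selenoenzyme that reduces thioredoxin, had 1140 counts, or 73.9 CPM (69.7 to 78.4), at the 76.7th percentile.

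Glutathione synthesis starts with glutamate-cysteine ligase, a heterodimer. Gclc, the gene of its catalytic subunit, had 766 counts, or 49.7 CPM (46.2 to 53.3), at the 66.8th percentile. Gclm, the gene of its modifier subunit, had 217 counts, or 14.1 CPM (12.3 to 16.1), at the 37.0th percentile. The reads of these partner genes stood on either side of the median of detected genes.

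The glutathione transferases, which couple glutathione to electrophiles, included the genes with the most reads. Gstm1, of the mu class, had 2553 counts, or 166 CPM (159 to 172), at the 90.5th percentile and rank 1358 of all genes. Gstp1, of the pi class, had 1462 counts, or 94.8 CPM (90.0 to 99.8), at the 82.0th percentile. Gsta4, an alpha class gene whose enzyme acts on the lipid peroxidation product 4-hydroxynonenal, had 307 counts, or 19.9 CPM (17.7 to 22.3), at the 44.4th percentile. In the RefSeq gene order, Gstm1 stands between Gstm2 and Gstm4, Gsta4 beside Gsta5, and Gstp1 beside Gstp3. Reads of such related genes may be shared or lost in counting, so the values of the 3 transferases are uncertain to that extent. The 6 rows of the mu class held 6985 counts in all, of which Gstm1 took 36.5% and Gstm7 46.2%.

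Ordered by reads, the genes ran from Gstm1 through Gstp1, Keap1, Txnrd1, Gclc, Gsta4, Nfe2l2, Gclm and Nqo1 to Hmox1, a 23.9-fold range. The counting intervals of neighbours overlapped in 3 of the 9 steps, between Gstp1 and Keap1, between Gsta4 and Nfe2l2, and between Gclm and Nqo1. The interval reached at most 20.8% from the value, for Hmox1. With 1 library, no gene with a like pattern over samples could be sought.

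**Figure D2:**
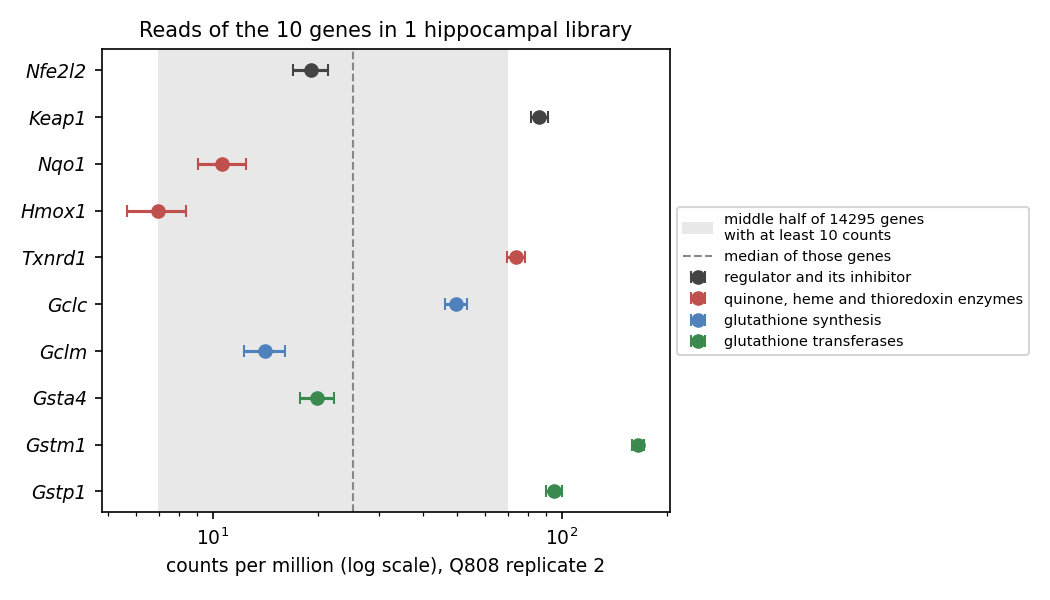
CPM of the 10 genes in Q808 replicate 2 (horizontal axis, log scale; points, values; bars, 95% exact counting intervals; colours, roles), with the 25th to 75th percentile of the 14295 detected genes as a grey band and their median as a dashed line. Gstm1 lies farthest right at 166 CPM and Hmox1 farthest left at 6.94 CPM.

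The annotation in the deposited files, which played no part in the choice by symbol, joined the genes in overlapping groups. The Gene Ontology term for glutathione metabolic process was held by 5 of the 10 (Gclc, Gclm, Gsta4, Gstm1 and Gstp1) and by 0.28% of all genes. The term for the response to oxidative stress was held by another 5-gene group (Nqo1, Hmox1, Txnrd1, Gclc and Gclm) and by 0.744% of all genes. Nfe2l2 and Keap1 carried neither term. The KEGG pathways named hepatocellular carcinoma and pathways in cancer each held 8 of the 10, beside 0.894% and 2.67% of all genes. That for fluid shear stress and atherosclerosis held 7 of the 10 and 0.738% of all genes. That for ferroptosis held Hmox1, Gclc and Gclm and 0.205% of all genes. Since the genes were chosen for these roles, such sharing follows from the choice. The KEGG pathway for glutathione metabolism held 57 genes, of which 44 (77.2%) were detected, against 77% of all genes, with a median of 21.4 CPM. Only 4 (7.02%) reached 100 CPM, against 13.1% of all genes. No count was found for 6 of the 57, beside 1703 of all 18560 genes. The 6 genes of this pathway with the most reads were Gpx4, Gstm7, Ggt7, Gstm1, Mgst3 and Gstp1.

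To place the 10 genes in their pathway, 12 lists of related genes were read in the same library. Of 124 listed genes 118 had a row, 103 of these (87.3%) were detected, and 23 (19.5%) reached 100 CPM, against 77% and 13.1% of all genes. The 77% is also the share to set beside the count of detected genes in each list below. The list of genes that control NRF2 or encode its partners and relatives had a median of 101 CPM, with 13 of 14 genes detected. Sqstm1, the gene of the autophagy receptor p62 that can sequester KEAP1, had 635 CPM. Nfe2l1, which encodes the related factor NRF1, had 277 CPM and Gsk3b, the gene of a kinase that can mark NRF2 for degradation, had 274 CPM. Nfe2l3 had 9 counts, and Cul3, the scaffold of the ligase, had 182 CPM. Among the small MAF genes, Mafg had 101 CPM, Mafk 17.1 CPM and Maff 10 counts in all. The genes of the competing repressors, Bach1 and Bach2, had 1.95 and 1.43 CPM. The list thus held genes read far above Nfe2l2 and others close to the limit of detection.

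All 7 genes of glutathione synthesis, recycling and cysteine supply were detected, with a median of 56.1 CPM. Slc3a2, the gene of the heavy chain of the cystine transporter, had 171 CPM and Slc7a11, that of its light chain and a known NRF2 target, had 64.3 CPM. The neuronal glutamate and cysteine transporter gene Slc1a1 had 70.8 CPM. Gss, the second enzyme of synthesis, stood near Gclm at 14.5 CPM, and Gsr, which regenerates reduced glutathione, had 42.0 CPM. Of 10 genes of glutathione breakdown, 9 were detected, beside 77% of all genes, with a median of 12.1 CPM. Ggt7 led with 182 CPM, followed by Lap3 (65.1 CPM) and Oplah (37.4 CPM), while Ggt6 had 5 counts.

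The other transferases spread from genes with no count to a level above that of Gstm1. Of 21 with a row, 15 were detected, beside 77% of all genes, with a median of 14.7 CPM. Above the median of detected genes lay 5, beside 38.5% of all genes. Gstm7 had 209 CPM, the microsomal Mgst3 95.9 CPM and the omega class gene Gsto1 93.5 CPM. Gsta1, Gsta5 and Gstt4 had no count; taking 3 counts as the limit that a count of 0 allows, in place of the exact interval, each may have had up to 0.195 CPM. Hpgds had 7 counts, Gsta3 had 4 and Mgst2 had 2. Rows without a symbol stood outside this list, and its median and counts leave them out. Among them were rows named as the alpha-3 (69.8 CPM) and mu 3 (47.5 CPM) transferases.

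The families of enzymes that act on peroxides or superoxide were read at unlike levels. Of the 8 glutathione peroxidase genes, 5 were detected, beside 77% of all genes, with a median of 10.5 CPM. Of the 8, 2 lay above the median of detected genes, a level that 38.5% of all genes exceeded. Gpx4, which reduces lipid peroxides and guards against ferroptosis, had 276 CPM, Gpx1 had 40.6 CPM and Gpx3 had 10.5 CPM. Gpx2, an NRF2 target in gut, had 3 counts, and Gpx5 and Gpx6 had none. All 16 genes of peroxiredoxins, thioredoxins and glutaredoxins were detected with a median of 64.1 CPM, and 13 of them lay above that same level, led by Prdx2 (245 CPM), Prdx6 (171 CPM) and Prdx5 (149 CPM). Srxn1, the sulfiredoxin gene that is a known NRF2 target, had 56.8 CPM. The list of superoxide dismutases and catalase, which also held Ccs (23.3 CPM), had a median of 76.7 CPM over 5 genes. Sod1, the cytosolic enzyme, had 179 CPM, Sod2, the mitochondrial enzyme, had 171 CPM, and Cat had 76.7 CPM.

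Heme and iron genes showed the inducible and the constitutive oxygenase at unlike read levels. Hmox2, the constitutive heme oxygenase gene of brain, had 1321 counts, or 85.7 CPM (81.1 to 90.4), beside the 6.94 CPM of Hmox1. The ferritin genes Fth1 and Ftl1 had 2034 and 209 CPM. The median of the 7 genes was 38.1 CPM, and all were detected. The 10 genes of NADPH supply, the reductant for NQO1, TXNRD1 and glutathione reductase, were also all detected (median 55.6 CPM), with Tkt at 189 CPM, Taldo1 at 121 CPM and Me1 at 108 CPM in front.

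Further NRF2 target enzymes, many of them known from liver, were low. Of 11, 7 were detected, beside 77% of all genes, at a median of 5.58 CPM. Aldh1a1 had 33.7 CPM, Ephx1 21.1 CPM and Ugdh 20.8 CPM. Cbr1 had 8 counts, Akr1b8 and Ugt1a6 had 3 each and Osgin1 had 1. Of the 3 metallothionein genes, Mt3, the brain form, had 390 CPM, Mt2A 43.0 CPM and Mt1 9.34 CPM, and their median was 43.0 CPM.

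**Figure D3:**
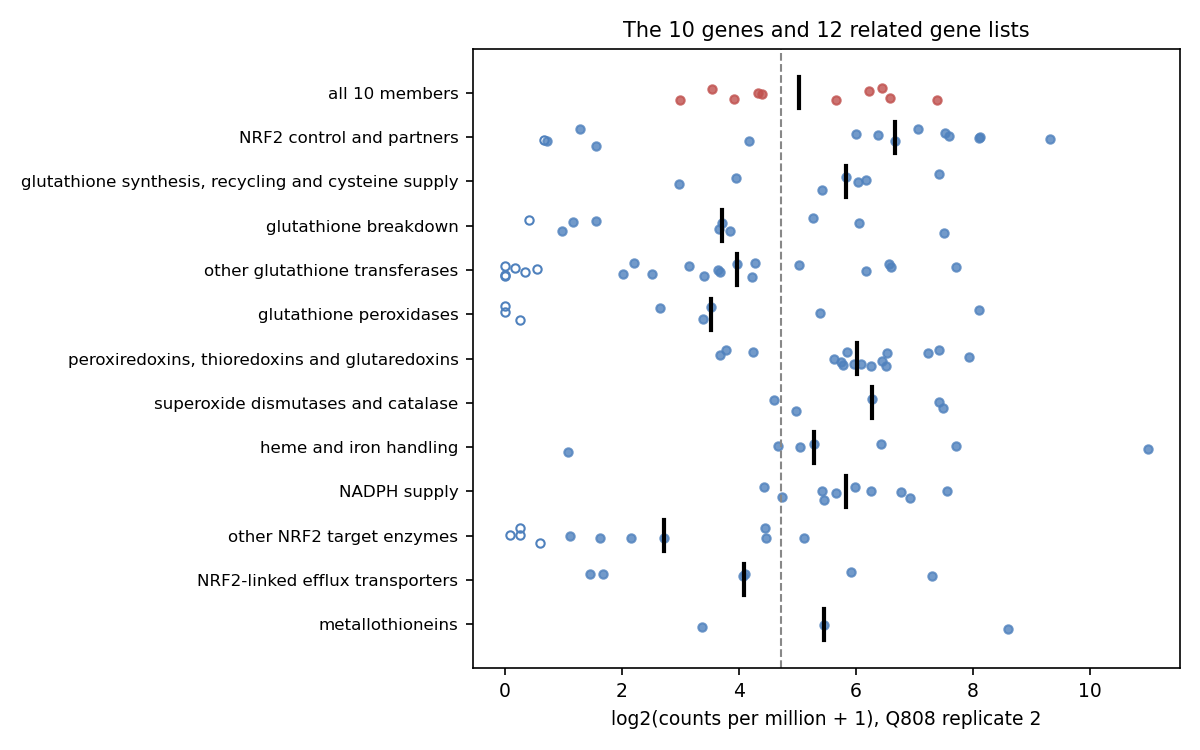
Levels of the 10 genes (red, top) and of the members of 12 related lists (blue) in Q808 replicate 2, as log2(CPM + 1) on the horizontal axis. Filled points have at least 10 counts and open points fewer, black bars are medians over the filled points, and the dashed line is the median of all detected genes. The median of the list of NRF2 control and partners lies farthest right at 101 CPM and that of the other NRF2 target enzymes farthest left at 5.58 CPM.

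Only 6 of all listed genes were held by the files of more than 1 sample. Their counts show how far these 6 genes differed between 2 libraries, and say nothing of the 10 genes or the other lists. These are transporter genes that NRF2 is known or thought to control and that export glutathione conjugates, heme pathway compounds or drugs. In replicate 2 all 6 were detected, with a median of 16.0 CPM, and Abcc5 had 156 CPM, Abcb6 59.2 CPM and Abcc1 16.3 CPM. Counts of replicates 3 and 2 were scaled over the 243 shared genes that reached 10 counts in both. Past 1.5-fold in either direction lay 0 of the 6 transporters and 10.3% of the shared genes, and with 6 genes no difference is read from these shares. No p-value was computed, because each side is 1 library. Abcc5 had 2196 counts in replicate 3 and 2406 in replicate 2, a ratio of 0.883 after scaling (95% interval 0.833 to 0.936). Abcb6 had 852 counts in replicate 3 and 912 in replicate 2, a ratio of 0.904 (0.822 to 0.993), and its interval reached 1 when scaled by the sum over shared genes (0.830 to 1.003). Abcc1, which exports glutathione conjugates, had 344 counts in replicate 3 and 251 in replicate 2, the ratio farthest from 1 at 1.33 (1.12 to 1.57). The intervals of Abcc4 (1.14, 0.960 to 1.36), Abcc2 (1.22, 0.762 to 1.98) and Abcc3 (0.967, 0.546 to 1.71) included 1. Abcc2 and Abcc3 had at most 43 counts, too few to detect a 1.5-fold difference. Replicate 1 held none of these genes.

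**Figure D4:**
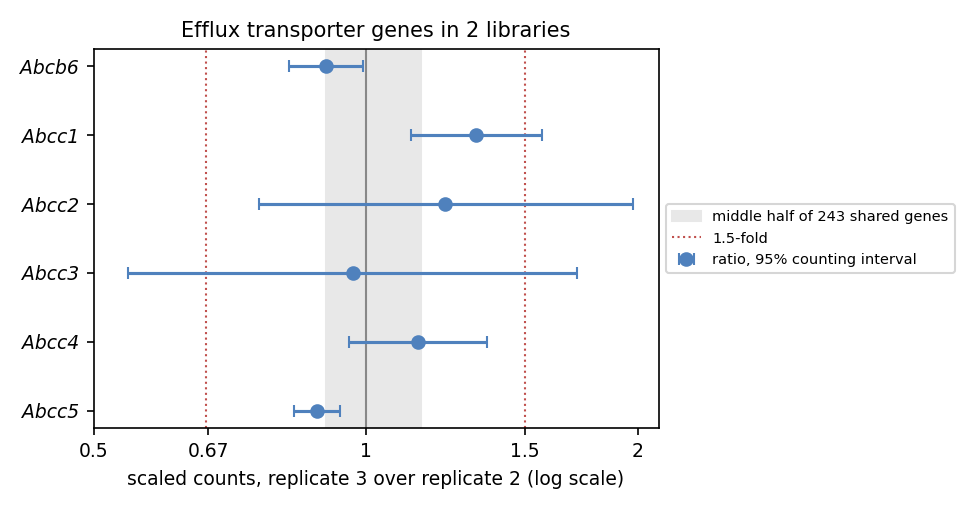
Scaled counts in Q808 replicate 3 over replicate 2 for the 6 transporter genes held by both files (horizontal axis, log scale; points, ratios; bars, 95% exact counting intervals; grey band, 25th to 75th percentile of the 243 shared genes; dotted lines, 1.5-fold). All 6 ratios lie within the dotted lines, from 0.883 for Abcc5 to 1.33 for Abcc1.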

How the data were processed

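Hippocampal RNA was sequenced in 3 samples of 1 group. Per the labels' protocols, RNA was extracted with TRIzol and mRNA libraries were made with Vazyme and MGI kits. Per the submitters' processing notes, the tools included Trimmomatic, HISAT2, Bowtie2, SAMtools, StringTie, Cufflinks, HTSeq and DESeq, with no versions or roles. The build and strand setting of the counts are not stated in these sources. The authors deposited raw counts, 1 column a sample and 1 row a gene, per the file headers. No label says that the samples are separate animals. The tables of replicates 1 and 3 break off, in the form used here, after 12 and 307 genes, so their depth is unknown.

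Symbols came from RefSeq (GRCr8) by gene identifier for 17515 of 18560 genes. CPM used the total of replicate 2, with 95% exact Clopper-Pearson intervals (scipy 1.17.1). Detection needed 10 counts. No column belonged to any other sample. Percentiles are ranks among detected genes, and list medians are of log2(CPM + 1), given back as CPM. Replicates 3 and 2 were scaled by TMM (edgeR 4.0.16) over shared genes, with exact conditional binomial intervals. The code was tested on simulated data. Levels per transcript length were planned and not made, since the sources used here gave no transcript length.

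The members and lists were chosen with earlier results of these data known. Named are all 10 members, the 3 genes with the most counts and those under 10 counts of each related list, the 2 leading markers of each cell type (1 of them is not reported here), and every listed gene in more than 1 file. Others (Bach1, Bach2, Cul3, Mafg, Mafk, Maff, Gss, Gsr, Srxn1) were named for their role after their values were seen.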

Additional observations from a re-analysis of the deposited data

How the results depend on the processing

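The number of the 10 genes detected stayed at 10 with a minimum of 1 or of 50 counts. Of all 18560 genes, 1703 had no count, so most genes pass a minimum of 1. The share of all genes that reached 50 counts was not computed. Without the 100 genes with the most counts in the library total, the sum of the 10 genes was 643 CPM, and 3 of them reached 100 CPM, against 1. This count was chosen after seeing the data. The smaller total raised the CPM of every gene 1.19-fold. The share of all genes that then reached 100 CPM was not computed, so the count is not read as a trait of these genes. With a threshold of 50 CPM, 4 did, against 25.4% of all genes. The total over genes with a RefSeq symbol moved no level beyond its counting interval. A pseudocount of 0.1 could hardly move a list median, so this setting is no check. With an odd number of detected genes, the median is the CPM of the middle gene whatever the pseudocount. With an even number it can shift a little, as from 31.6 to 31.5 CPM for the 10 genes. With genes under 10 counts included, the medians were 91.2 CPM for NRF2 control and partners and 9.53 CPM for the other transferases. They were 7.07 CPM for the glutathione peroxidases and 2.08 CPM for the other NRF2 target enzymes. With all genes as the background, the median percentile of the 10 genes was 65.8. DESeq2 size factors, scaling by the sum over shared genes and no filter left 0 of the 6 transporters past 1.5-fold, and the sum moved the interval of Abcb6 to include 1 (0.830 to 1.003). Leaving out replicate 1 changed no value, and leaving out replicate 3 ends the transporter ratios alone. Leaving out replicate 2 leaves no value for any of the 10 genes. An order per transcript length was not run. No paired analysis was possible because the study, as analysed here, has 1 group.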

Other observations

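Glutathione transferase rows that no list held, named here after their counts were seen, included genes that RefSeq's table did not match to a symbol. A row whose product is named glutathione S-transferase alpha-3 had 1076 counts (69.8 CPM), beside 4 counts for Gsta3. A row with the product glutathione S-transferase mu 3 had 732 counts (47.5 CPM). The alpha class row Gsta4l1, named in the files as similar to the alpha-4 transferase, had no count, beside 307 for Gsta4. How reads were divided among such related rows was not tested.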
